A study of Mus musculus with 12 samples.

Results

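The Id genes and the E-protein genes that their products bind make up a set of 7, Id1, Id2, Id3, Id4, Tcf3, Tcf4 and Tcf12, chosen by name out of 22342 protein-coding genes on chromosomes 1 to 19 and X of the mouse genome (mm9). At each of them 6 histone marks were read, within 1 kb of the transcription start site (TSS) and over the gene body, in myoblasts and in myotubes of C2C12, a mouse muscle cell line derived from the C3H strain. The 2 states of the cells were compared to see how the marks at these genes differ between dividing and fused muscle cells. Myoblasts were near confluence in 10% serum, and myotubes were collected about 5 days after serum was withdrawn and were freed of unfused cells by a light trypsin treatment. Both came from passages 15 to 18 of the same line, with no other treatment named in the labels. For each mark 1 ChIP-seq library (sequencing of immunoprecipitated chromatin) was made per state, 12 in all, so there are no replicates and no difference between the states could be tested.

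Id proteins are helix-loop-helix proteins that lack the basic region with which their relatives hold DNA. They bind E proteins, the broadly expressed partners of MyoD, myogenin and other tissue-specific factors, and the pairs they form cannot bind the E-box, the short DNA element that E proteins and their partners recognise. In muscle precursors Id proteins are known for holding back differentiation, and Id genes are known targets of serum and of bone morphogenetic protein (BMP) signalling through Smad proteins. Of the marks, H3K4me3 sits at active start sites, H3K4me2 and H3K4me1 at start sites and enhancers, H3K27ac at active ones of both, H3K36me3 over transcribed gene bodies, and H3K27me3 over genes held silent by Polycomb proteins.

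The myoblast libraries held between 1858771 reads, for H3K27ac, and 7033100 reads, for H3K36me3, and the myotube libraries between 3298694 and 6271899. The level of a mark is given as fold enrichment, the reads in a window over the mean of the same library across the genome, which lay between 0.727 and 2.75 reads per kb. It carries an exact Poisson 95% interval. The change is given as the ratio of the myotube to the myoblast level divided by the same ratio of the median promoter, called the relative ratio (for gene bodies, the median gene body), with an exact conditional 95% interval. These intervals cover counting error only, and the ratios compare 2 libraries, not 2 conditions. A member was counted as higher or lower in myotubes when the relative ratio was at least 2 or at most 0.5 and the 2 libraries of the mark summed to 20 reads or more in the window. Scaled by total reads alone, the median promoter stood at -0.21 on the log2 scale for H3K4me3, -0.76 for H3K4me2, -0.22 for H3K4me1, -0.80 for H3K27ac, -0.41 for H3K27me3 and -0.09 for H3K36me3. Shares of promoters counted as higher or lower are relative to the median promoter. They were not worked out by total reads or by 10 kb windows outside peaks. Shares over all gene bodies were worked out for H3K36me3 and H3K27me3 only. The labels were checked on lists of marker genes. All 10 myotube markers were higher in the myotube libraries in H3K4me3, from 0.461 to 6.00-fold in myoblasts and 13.2 to 102-fold in myotubes, and in H3K27ac. Each of 4 osteoblast and 3 endothelial or blood markers stayed at or below 3.10-fold in H3K4me3 in both states. Among 4 adipocyte markers Pparg had 24.4-fold in myoblasts and 14.0-fold in myotubes, and Cebpa 9.22-fold and 10.1-fold. Adipoq had 2.77-fold and 1.16-fold, and Fabp4 had no read.

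The Id genes are short and the E-protein genes mostly long. Id1 lies on chromosome 2 from 152561987 to 152563146 on the plus strand, Id2 on chromosome 12 from 25778666 to 25780957 on the minus strand, Id3 on chromosome 4 from 135699412 to 135701670 on the plus strand and Id4 on chromosome 13 from 48356796 to 48359405 on the plus strand. Tcf3 spans 24134 bp on the minus strand of chromosome 10 and has its start site at 79896366. Tcf12 spans 267568 bp on the minus strand of chromosome 9 and starts at 71959626. Because the Id genes are 1160 to 2610 bp long, the reads of their start sites and of their bodies are largely the same reads.

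The 200 bases upstream of the start sites are shown because the reads described next lie on and beside them, and because the genes of the set differ in them. They were read from mm9 in the direction of transcription, and capitals mark 4 short elements on either strand, the E-box CANNTG, the CCAAT box, the TATA box TATAAA and TGACG, the core of a cAMP response element. No marked elements overlap.
Id1 (chr2:152561787-152561986, plus strand): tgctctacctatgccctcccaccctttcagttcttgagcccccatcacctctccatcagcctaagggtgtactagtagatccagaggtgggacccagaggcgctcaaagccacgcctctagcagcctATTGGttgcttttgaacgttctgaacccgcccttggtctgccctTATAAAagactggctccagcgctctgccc
Id2 (chr12:25780958-25781157, minus strand): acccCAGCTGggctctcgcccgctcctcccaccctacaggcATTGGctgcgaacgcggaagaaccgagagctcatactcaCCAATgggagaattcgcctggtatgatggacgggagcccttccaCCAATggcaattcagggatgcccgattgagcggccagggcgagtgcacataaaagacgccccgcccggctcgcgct
Id3 (chr4:135699212-135699411, plus strand): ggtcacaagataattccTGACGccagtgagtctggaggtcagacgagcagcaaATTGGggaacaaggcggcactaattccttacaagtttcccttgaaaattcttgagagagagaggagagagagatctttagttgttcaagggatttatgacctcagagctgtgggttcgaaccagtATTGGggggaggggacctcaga
Id4 (chr13:48356596-48356795, plus strand): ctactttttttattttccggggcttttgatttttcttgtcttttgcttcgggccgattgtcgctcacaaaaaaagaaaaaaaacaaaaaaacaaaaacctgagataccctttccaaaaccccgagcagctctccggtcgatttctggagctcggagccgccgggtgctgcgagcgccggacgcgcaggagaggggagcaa
Tcf3 (chr10:79896367-79896566, minus strand): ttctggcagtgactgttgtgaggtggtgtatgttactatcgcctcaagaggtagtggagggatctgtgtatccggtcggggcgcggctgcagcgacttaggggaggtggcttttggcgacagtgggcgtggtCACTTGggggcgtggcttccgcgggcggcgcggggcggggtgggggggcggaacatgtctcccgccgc
Tcf12 (chr9:71959627-71959826, minus strand): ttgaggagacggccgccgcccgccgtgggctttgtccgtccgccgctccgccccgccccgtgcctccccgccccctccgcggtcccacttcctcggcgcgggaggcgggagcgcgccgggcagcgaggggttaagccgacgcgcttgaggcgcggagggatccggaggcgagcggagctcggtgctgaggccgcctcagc
The Id1 window held TATAAA close to its start site and 1 CCAAT box, the Id2 window 3 CCAAT boxes and 1 E-box, and the Id3 window 2 CCAAT boxes and 1 TGACG. The Id4 and Tcf12 windows held none of the 4 elements, nor did that of Tcf4, which is not shown, and Tcf3 had 1 E-box. Of the same windows of all 22342 genes, 53.4% held an E-box, 29.5% a CCAAT box, 9.76% a TATA box and 17.6% TGACG. A further sequence searched, the GC-rich palindrome GGCGCC, was in 11.3% of all windows and in none of the 7. The E-protein windows were richer in CG dinucleotides, with 18 in Tcf3, 18 in Tcf4 and 32 in Tcf12, against 5 in Id1, 16 in Id2, 4 in Id3 and 15 in Id4, where the median window had 8.

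All 7 genes had H3K4me3 and H3K4me2 at their start sites in both states, and differed widely in H3K27ac. In myoblasts H3K27ac was highest at Id3, with 118-fold (interval 101 to 137), and at Id1, with 106-fold (89.9 to 124). Of all promoters 99.5% lay below Id3 and 99.1% below Id1. Tcf3 followed with 53.0-fold, Tcf12 with 45.4-fold, Id2 with 36.5-fold, Tcf4 with 13.1-fold and Id4 with 3.44-fold, while the median promoter had 3.44-fold. The intervals of Id3 and Id1 overlap, as do those of neighbours from Tcf3 to Id2, while Id1 and Tcf3 are apart and so are Id2 and Tcf4. In myotubes the order was different. Tcf3 had 35.5-fold, Tcf12 25.2-fold, Id3 17.1-fold, Id1 16.8-fold, Tcf4 14.9-fold, Id2 8.66-fold and Id4 2.17-fold, so that the 2 genes first in myoblasts stood behind 2 E-protein genes. The interval of Tcf3 (29.6 to 42.1) is apart from those of Id3 (13.1 to 21.8) and Id1 (12.9 to 21.5), while that of Tcf12 (20.3 to 30.8) overlaps both.

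**Figure D1:**
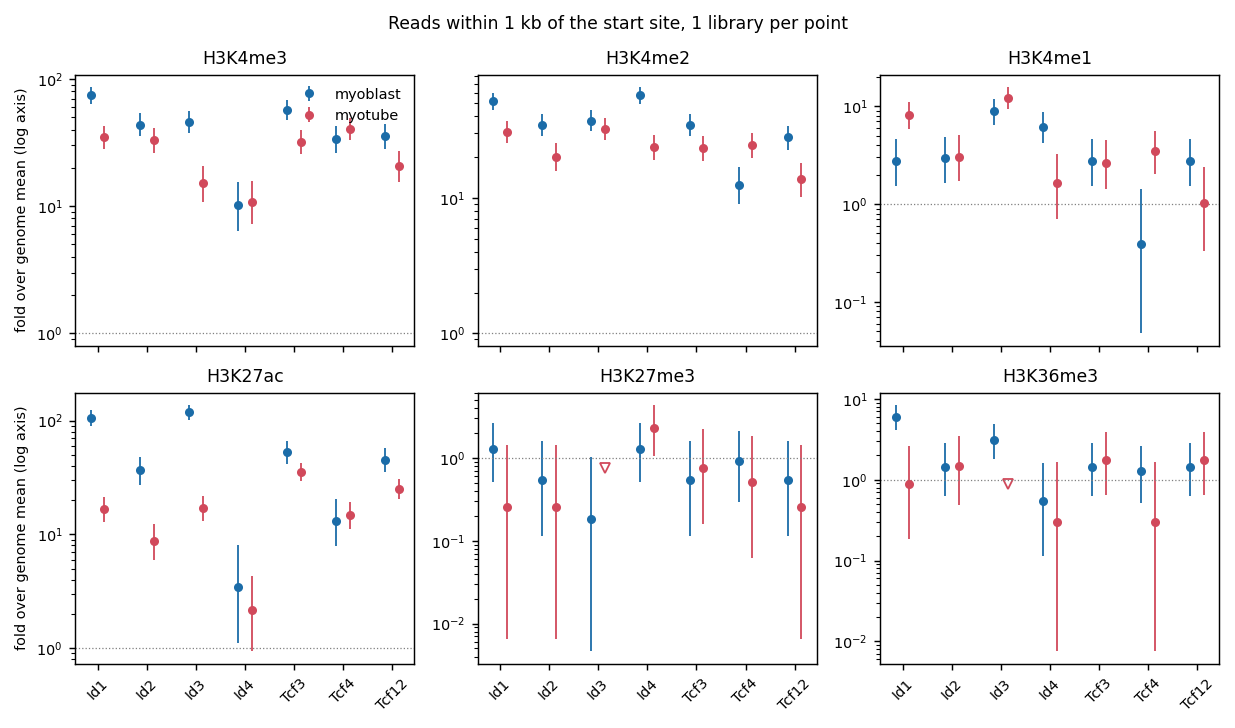
Fold enrichment over the genome mean within 1 kb of the start site (log axis) of the 7 genes for each of 6 marks, in myoblasts (blue) and myotubes (red), 1 library per point with its exact Poisson 95% interval. Open triangles mark libraries with 0 reads, drawn at the level of 3 reads, and the dotted line is the genome mean. H3K27ac is 118-fold in myoblasts and 17.1-fold in myotubes at Id3, and 53.0-fold and 35.5-fold at Tcf3.

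H3K27ac was lower in myotubes at 3 of the 4 Id genes, Id1, Id2 and Id3, and at 0 of the 3 E-protein genes. Of 10769 promoters with at least 20 reads, 13.6% were lower and 15.1% higher by the same rule. Scaled by windows outside peaks, Tcf12 at 0.480 was counted as lower too. By that scaling the median promoter itself lies just under the limit of 0.5, and the share of promoters counted was not worked out. Fewer cells with a mark and less of the mark per cell cannot be told apart in such libraries. Of the members 6 had enough reads, and the median of their relative ratios was 0.688, where the median promoter is 1 by construction. In H3K4me3, where all 7 had enough reads and their median was 0.668, Id3 was the only member counted, and 4.96% of 11402 promoters were lower and 4.93% higher. In H3K4me2, with a median of 1.01 over 7 members, Tcf4 was counted as higher, as were 8.86% of 13283 promoters, and none as lower, against 9.66%. By total reads Tcf4 was no longer counted there, and Id4 and Tcf12 were lower. The median promoter itself stood at 0.589 by that scaling, near the limit of 0.5, and the share of all promoters was not worked out. In H3K4me1, 5 members had enough reads, and Id1 was higher and Id4 lower, against 14.7% and 14.4% of 11833 promoters. H3K36me3 within 1 kb of the start site was measurable at Id1 alone, which was lower, as were 13.5% of 2317 promoters, with 11.4% higher. None of the 7 reached 20 reads of H3K27me3 there, where 8.32% of the 3437 promoters that did were higher and 12.3% lower.

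**Figure D2:**
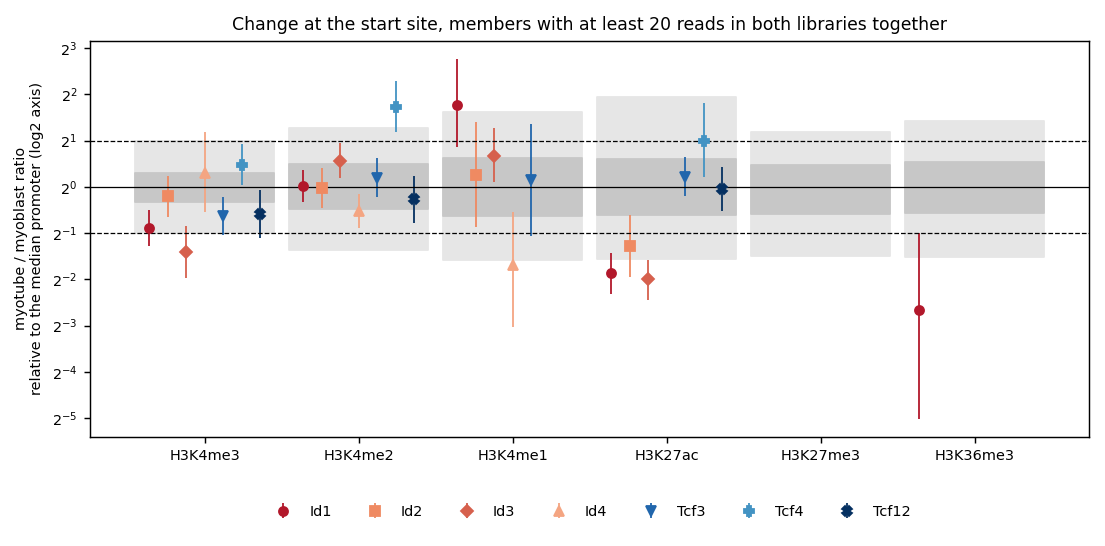
Ratio of the myotube to the myoblast level at the start site relative to the median promoter (log2 axis), for members whose 2 libraries summed to 20 reads or more, with exact 95% intervals. Grey bands hold the middle 50% (dark) and 90% (light) of all promoters, and dashed lines stand at 0.5 and 2. In H3K27ac, Id1, Id2 and Id3 lie below 0.5 and Tcf3, Tcf4 and Tcf12 between 0.963 and 1.98.

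Id1, whose product is the Id protein best known as an early target of serum and BMP, had 154 H3K27ac reads in myoblasts and 62 in myotubes around its start site. Given the depth of the 2 libraries and the median promoter, this was a relative ratio of 0.275 (interval 0.201 to 0.372), or 0.158 by total reads. H3K4me3 was 161 reads against 90, 74.2-fold against 34.9-fold, and its relative ratio of 0.543 (0.414 to 0.707) stayed just inside the limit. By total reads that ratio was 0.470, under the limit. H3K4me3 was counted as lower in the 2 kb downstream, with a ratio of 0.447 relative to the median of that window. Over the gene body it was counted as lower too, at 0.498 (0.374 to 0.659). H3K4me2 had 174 and 115 reads, which is a relative ratio of 1.01 and 0.597 by total reads. H3K4me1 moved the other way, from 14 to 40 reads, with a relative ratio of 3.43 (1.83 to 6.82). H3K36me3 over the body of the gene had 38 reads in myoblasts, 11.9-fold, and 3 in myotubes, a relative ratio of 0.127 (0.0251 to 0.400). In myotubes the start of Id1 still had H3K4me2 and H3K4me3 at 30.9-fold and 34.9-fold, with less acetylation and more H3K4me1 than in myoblasts, and H3K36me3 over the gene was not distinguishable from the genome mean at this depth.

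Id3, whose product acts like that of Id1, was counted as lower in H3K27ac and also in H3K4me3. Within 1 kb of the start site Id1 was not counted in H3K4me3, though it was over its body. Id3 had 172 H3K27ac reads in myoblasts and 63 in myotubes, a relative ratio of 0.25 (0.184 to 0.336) and 0.144 by total reads. H3K4me3 had 100 and 39 reads, a relative ratio of 0.379 (0.254 to 0.553). The H3K4me3 of Id3 lay mostly within the gene, and in the first 2 kb downstream of the start site the reads were 189 in myoblasts and 45 in myotubes, 87.2-fold against 17.5-fold. In the same 2 kb H3K4me1 had 12 reads in myoblasts and 47 in myotubes, 2.37-fold against 9.58-fold. Within 1 kb of the start site H3K4me1 had 45 and 60 reads, 8.89-fold and 12.2-fold, and its relative ratio of 1.60 (1.07 to 2.41) was not counted. That H3K4me1 level was the highest of the set in both states, and in myotubes 99.5% of promoters lay below its 12.2-fold. H3K36me3 over the gene had 73 reads in myoblasts, 11.8-fold, and 0 in myotubes, where 3 reads would be 0.788-fold. With 3 reads in place of 0 it would be 14.9-fold lower by total reads and 15.1-fold lower relative to the median gene body. The exact interval of its relative ratio ran from 0 to 0.0833. H3K4me2 had 125 and 121 reads, and its relative ratio of 1.48 is above 1 while the ratio by total reads, 0.874, is below.

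**Figure D3:**
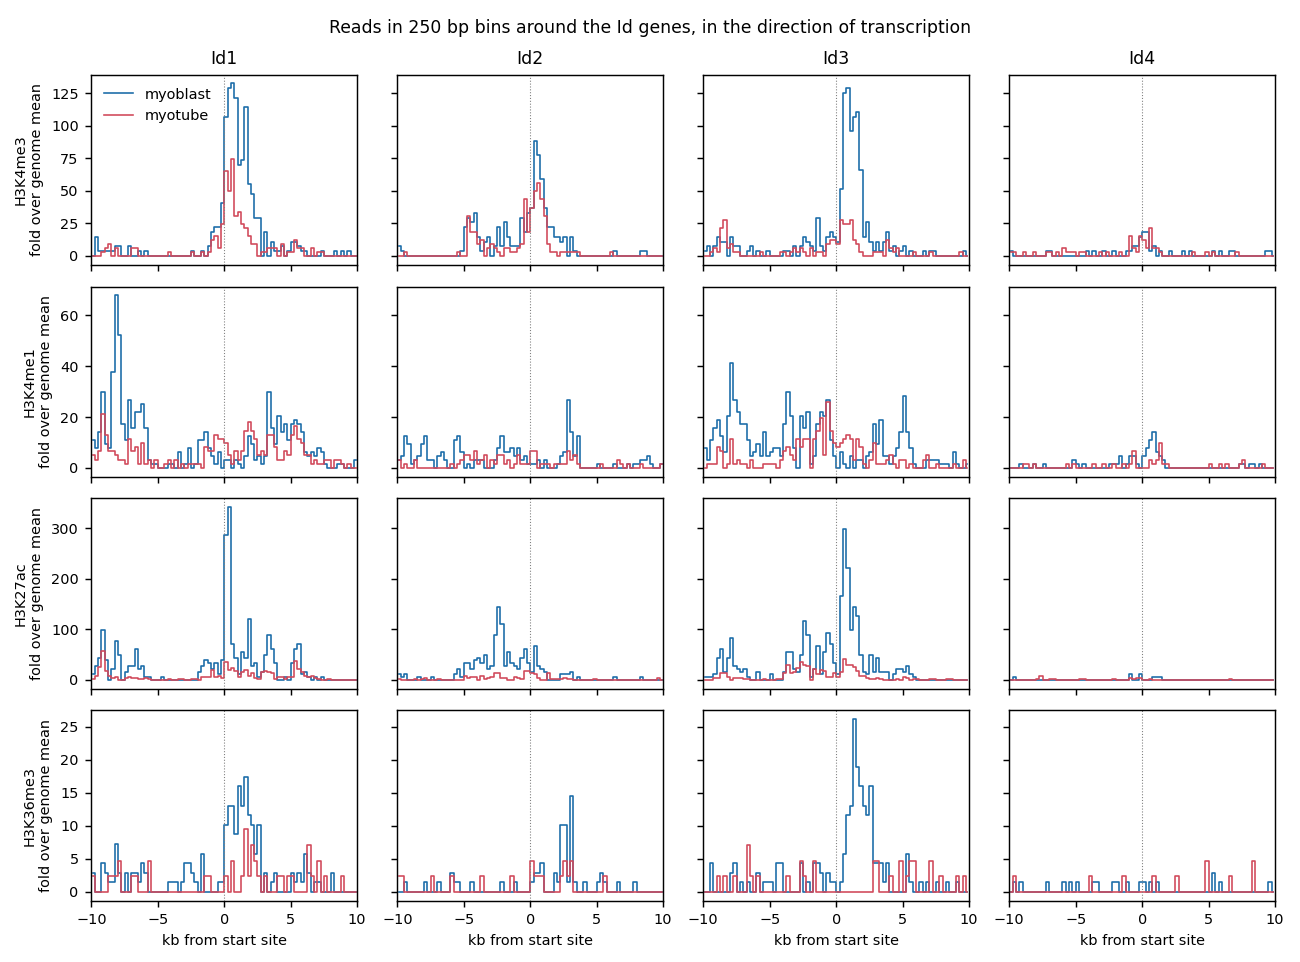
Fold enrichment in 250 bp bins within 10 kb of the start sites of Id1, Id2, Id3 and Id4 (columns) for H3K4me3, H3K4me1, H3K27ac and H3K36me3 (rows), in myoblasts (blue) and myotubes (red), drawn in the direction of transcription with 1 library per line. Over Id3 the blue H3K4me3, H3K27ac and H3K36me3 peaks lie downstream of the start, and the red H3K4me1 fills the same stretch.

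Across all genes 7.41% of 16067 gene bodies were lower in H3K36me3 by the rule and 7.27% were higher. Id1 and Id3 were the 2 members counted as lower, and none was higher. Both had a deposited H3K36me3 peak within 1 kb of the start site in myoblasts, as did 3.34% of promoters, and no member had one in myotubes, where the share was 3.70%.

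Id2 was within the limits in K4 methylation at its start site. H3K4me3 had 95 and 85 reads and a relative ratio of 0.868 (0.640 to 1.18), and H3K4me2 had 117 and 75 reads and a relative ratio of 0.982. H3K27ac had 53 and 32 reads, 36.5-fold against 8.66-fold, and a relative ratio of 0.413 (0.257 to 0.652). Within 500 bp of the start site alone that ratio was 0.59, and in the 2 kb downstream it was 0.541, so Id2 is not counted in either of those windows. More of the acetylation of Id2 lay further upstream, as the profile of its bins shows. Between 1 and 4 kb upstream, a window set after the profile was seen, H3K27ac had 120 reads in myoblasts and 29 in myotubes, 55.0-fold against 5.23-fold, with a relative ratio of 0.165 (0.106 to 0.249). H3K4me2 in that window had 191 and 72 reads. H3K36me3 over Id2 had 13 and 5 reads, too few for a ratio.

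Id4 differed from the other Id genes in both states. Its start site had H3K4me2 at 57.5-fold in myoblasts, the highest of the 7, on 193 reads, but H3K4me3 of only 22 reads, 10.1-fold, and H3K27ac of 5 reads. In myotubes the H3K4me2 reads were 88, with a relative ratio of 0.698 (0.537 to 0.903), H3K4me3 had 28 reads and H3K27ac 8. H3K4me1 went from 31 to 8 reads, a relative ratio of 0.310 (0.123 to 0.689). Over the gene body H3K4me2 had 153 and 55 reads, a relative ratio of 0.369 (0.266 to 0.505), which counts as lower. Id4 was also the member with the most H3K27me3 over its body, 4.05-fold on 29 reads in myoblasts and 2.74-fold on 14 in myotubes, where the median gene body had 0.757-fold and 0.994-fold. The relative ratio was 0.593 with an interval from 0.289 to 1.16. By the rule 2.91% of 16506 gene bodies were lower in H3K27me3, 4.63% higher, and 0 of the 7 members were either. An antisense RNA gene, A330033J07Rik, starts 1196 bp downstream of the Id4 start site and overlaps its window, so the reads of the 2 genes cannot be told apart.

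Tcf3 encodes the E2A proteins E12 and E47, the E proteins first found as partners of MyoD. It had 124 and 83 H3K4me3 reads, a relative ratio of 0.650 (0.486 to 0.865), and 116 and 87 H3K4me2 reads. H3K27ac had 77 and 131 reads, and the relative ratio of 1.16 (0.871 to 1.56) is above 1 while the ratio by total reads, 0.669, is below. In the 2 kb downstream of its start site H3K4me3 was lower, 115 reads against 39, with a ratio of 0.324 relative to the median of that window. Over the gene body H3K4me3 had 144 and 69 reads, a relative ratio of 0.436 (0.322 to 0.584), which counts as lower too. Tcf3 carried the most H3K36me3 of the set over its body, 16.7-fold on 1105 reads in myoblasts and 21.7-fold on 883 in myotubes, and its relative ratio of 1.28 (1.17 to 1.40) lies within the limits. The mark was densest at the 3′ end, where the last 8.05 kb had 22.4-fold in myoblasts and 34.2-fold in myotubes. The other annotated start sites of Tcf3, more than 2 kb away, had at most 5 H3K4me3 reads in a library.

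At Tcf4, which encodes E2-2, H3K4me2 was the mark counted as higher in myotubes at the start site used, and H3K4me2 and H3K27ac were over the gene body. The gene spans 343822 bp on the plus strand of chromosome 18, and its start site with the most H3K4me3 lies inside it at 69753071, 248.9 kb downstream of the group of start sites near the 5′ end of the gene, represented by 69504164. At the internal start site H3K4me3 had 73 and 105 reads, a relative ratio of 1.40 (1.03 to 1.91), and H3K4me2 had 42 and 91, a relative ratio of 3.32 (2.28 to 4.91) that was 1.96 by total reads and 1.12 when scaled by windows outside peaks. H3K27ac had 19 and 55 reads and a relative ratio of 1.98 (1.16 to 3.53), or 1.14 by total reads and 0.986 by windows outside peaks. H3K4me1 had 2 reads in myoblasts and 17 in myotubes, under the minimum. In the 2 kb downstream H3K4me3 went from 57 to 124 reads, H3K4me2 from 24 to 99, H3K4me1 from 1 to 20 and H3K27ac from 6 to 43. At the group near the 5′ end H3K4me3 had 35 reads in myoblasts and 99 in myotubes, 16.1-fold against 38.4-fold, with a relative ratio of 2.75 (1.85 to 4.16), or 2.38 by total reads, H3K4me2 had 54 and 86, and H3K27ac 20 and 73. The 5′-most annotated start site itself lies further upstream, at 69503800, and around it H3K4me3 was 10.1-fold and 25.2-fold. The other groups of annotated start sites had at most 5 H3K4me3 reads in a library. H3K36me3 over the gene had 2251 and 1578 reads, 2.38-fold and 2.72-fold, a relative ratio of 1.13 (1.06 to 1.20). H3K27ac over the gene had 292 and 1421 reads, a relative ratio of 2.43 (2.14 to 2.77), or 1.91 by total reads. H3K4me2 over the gene had 783 and 1740 reads, a relative ratio of 2.28 (2.10 to 2.48), or 2.01 by total reads. By windows outside peaks these ratios were 1.66 and 1.15.

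Tcf12, which encodes HEB, was within the limits at its start site. Over its body H3K36me3 was close to the lower limit and H3K4me2 was counted as higher. H3K4me3 had 77 and 53 reads, a relative ratio of 0.668 (0.462 to 0.960), and H3K4me2 had 94 and 51, 0.831. H3K27ac had 66 and 93 reads, a relative ratio of 0.963 (0.695 to 1.34) that was 0.554 by total reads. H3K36me3 over the gene had 1911 reads in myoblasts and 615 in myotubes, 2.60-fold against 1.36-fold. Its relative ratio of 0.517 (0.472 to 0.567) fell just short of the limit of 0.5, and the lower level held along the gene, with 1.89-fold against 1.10-fold in the first 89.2 kb and 4.11-fold against 2.11-fold in the last. H3K4me2 over the gene had 312 and 1011 reads, a relative ratio of 3.33 (2.93 to 3.79), or 2.92 by total reads and 1.68 by windows outside peaks. The other annotated start site, inside Tcf12, had 1 H3K4me3 read in each state. A gene named as a ribosomal protein pseudogene, Rpl15-ps2, lies within Tcf12.

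**Figure D4:**
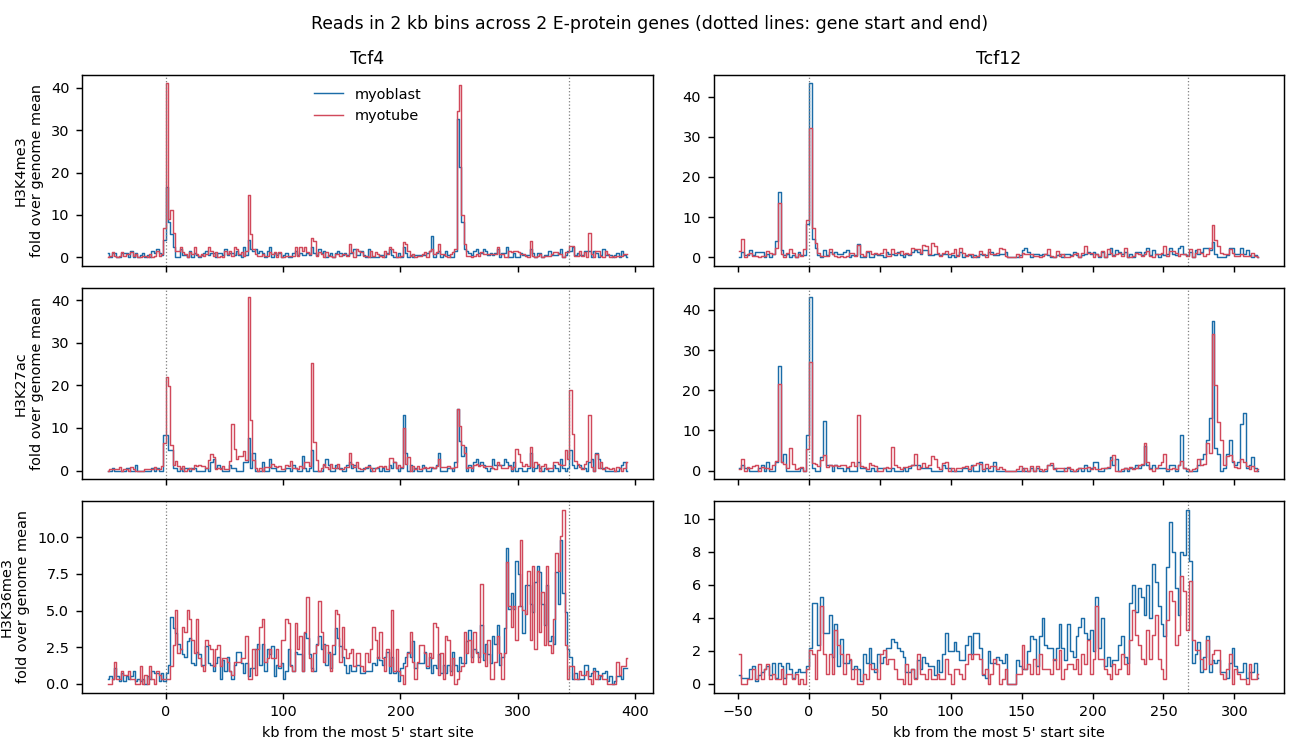
Fold enrichment of H3K4me3, H3K27ac and H3K36me3 (rows) in 2 kb bins across Tcf4 and Tcf12 (columns), against the distance in kb from the 5′-most start site, in myoblasts (blue) and myotubes (red), 1 library per line. Dotted lines mark the start and end of each gene. Tcf4 has an H3K4me3 peak at its start and another inside the gene, and in Tcf12 the blue H3K36me3 line lies above the red one, 2.60-fold against 1.36-fold over the gene.

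In the peak lists deposited with the samples, all 7 members had an H3K4me3 peak within 1 kb of the start site in both states, as did 48.6% of promoters in myoblasts and 48.8% in myotubes, and all 7 had an H3K4me2 peak, against 56.7% and 52.9%. In H3K4me1, Id3 and Tcf3 had one in myoblasts (29.4% of promoters) and Id1 and Id3 in myotubes (10.8%). In myotubes 6 members, all but Id4, had an H3K27ac peak (42.2%) and 0 an H3K27me3 peak (1.41%). In myoblasts the lists deposited with the H3K27ac and H3K27me3 samples carry each other's mark in their names. The list deposited with H3K27me3 had 36.4 times the genome mean of H3K27ac reads and 0.804 times that of H3K27me3 reads, and the list deposited with H3K27ac had 0.588 and 6.76 times. Taken as deposited, 6 members had a peak in the first list (46% of promoters) and 0 in the second (5.03%), and with the lists exchanged 0 had an H3K27me3 peak and 6 an H3K27ac peak.

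Around the 7 genes lay 61 distal regions, merged H3K4me2 peaks of both states within 50 kb of a member gene and at least 2 kb from any annotated start site, 26 of them inside Tcf4 or Tcf12. Regions are listed by member gene, but start sites of other genes lie closer to some of them, and which gene a region serves was not tested. Of those of the Id genes with enough reads, 14 of 18 were counted as lower in H3K27ac in myotubes relative to other distal regions, and 7 of 18 as lower and 2 as higher relative to the median promoter. Here the relative ratio is taken against the median of all distal regions of the genome, which by total reads stood at -0.65 on the log2 scale for H3K4me1, -0.46 for H3K4me2 and 0.38 for H3K27ac. Of 28 regions with at least 20 H3K27ac reads, 18 were lower and 4 higher, where 28.3% and 32.3% of 13293 such regions of the genome were. Scaled by the median promoter, a setting added after the data were seen, 9 were lower and 7 higher, against 10.6% and 54.1% of all regions. In H3K4me1, 14 of 33 were lower and 3 higher, against 15.4% and 18.1%, and in H3K4me2 11 of 30 were lower and 6 higher, against 21.9% and 26.4%. By total reads 19 were lower and 6 higher in H3K4me2, against 33.98% and 19.6%, and relative to the median promoter 7 and 6, against 15.3% and 32.3%. Neighbouring regions share a locus and are not independent.

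Near Id3, 8 of 10 regions were lower in H3K27ac and 8 of 11 in H3K4me1, with 0 higher, and near Id1, 4 of 6 and 2 of 6. Relative to the median promoter the H3K27ac counts were 3 lower and 1 higher near Id3 and 2 lower and 1 higher near Id1. The largest fall near Id3 lay 22.0 kb downstream of its start site, chr4:135721116-135721749, and 6560 bp from the nearest annotated start site, that of another gene. In this region H3K27ac had 27 reads in myoblasts and 3 in myotubes, H3K4me1 68 and 15 and H3K4me2 33 and 8. Its H3K27ac ratio was 0.0335 (0.00651 to 0.109) relative to other distal regions and 0.0759 relative to the median promoter. The region near Id3 with the most H3K27ac, 2.6 kb upstream, had 50 and 60 reads, with ratios of 0.362 and 0.820. Near Id1 the largest fall was 8.0 kb upstream, chr2:152553526-152554384. It had 105 H3K4me1 reads in myoblasts and 11 in myotubes, 66 and 6 of H3K4me2, and 26 and 5 of H3K27ac, the last with a ratio of 0.0580 (0.0174 to 0.154) and, relative to the median promoter, 0.131. Its central 200 bases are shown because all 3 marks were lower there, with capitals as above.
Id1 upstream region (chr2:152553856-152554055, plus strand): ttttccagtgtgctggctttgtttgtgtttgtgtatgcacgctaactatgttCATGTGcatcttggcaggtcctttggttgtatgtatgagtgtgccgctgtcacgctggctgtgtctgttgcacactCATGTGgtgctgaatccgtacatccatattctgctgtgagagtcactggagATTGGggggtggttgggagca
They held 2 E-boxes and 1 CCAAT box, and 70.6% of the centres of all distal regions held an E-box. Another region near Id1, 49.3 kb downstream and 11682 bp from the nearest annotated start site, that of another gene, had the most H3K27ac. It had 34 reads in myoblasts and 187 in myotubes, and its ratio of 1.66 (1.15 to 2.47) lay within the limits. The ratio was 2.16 by total reads and 3.76 relative to the median promoter, above the limit under both. Id2 and Id4 each had a single region with enough H3K27ac reads, and both were lower. That of Id2, 14.4 kb upstream, had 18 and 3 reads and that of Id4, 33.4 kb upstream, 20 and 3.

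Of the 19 regions near Tcf4, 4 had enough H3K27ac reads, and 3 of these were higher in myotubes. Of all such regions of the genome 32.3% were higher, or 54.1% relative to the median promoter. The 3 regions reached 20 reads only through the myotube library, the deeper of the 2, so the count is not a result about Tcf4. The one with the most reads, inside the gene 71.8 kb after its 5′-most annotated start site, had 10 reads in myoblasts and 141 in myotubes, 7.42-fold against 41.2-fold, with a ratio of 4.25 (2.25 to 9.06) relative to other distal regions and 9.64 relative to the median promoter. H3K4me1 went from 14 to 39 reads there and H3K4me2 from 32 to 106. One more, 125.7 kb into the gene, had 7 and 90 H3K27ac reads, and another, 1.9 kb past its end, 6 and 50. The remaining one, 203.6 kb into the gene, had 20 and 32 reads, and its ratio of 0.483 counts as lower but is 1.09 relative to the median promoter. Near Tcf12 the region with the most H3K27ac, 18.2 kb past the gene's end, had 55 and 177 reads, a ratio of 0.971 that was 1.27 by total reads. The largest rise there was 35.2 kb into the gene, 3 reads against 28, with a ratio of 2.82 (0.869 to 14.5), and the largest fall 38.4 kb past the end, 32 against 13. Both regions near Tcf3 with enough reads were lower, and the one with more had 46 and 23 H3K27ac reads and 333 and 74 H3K4me2 reads. That region lies 41.7 kb past the end of Tcf3 and 2908 bp from the nearest annotated start site, that of another gene.

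**Figure D5:**
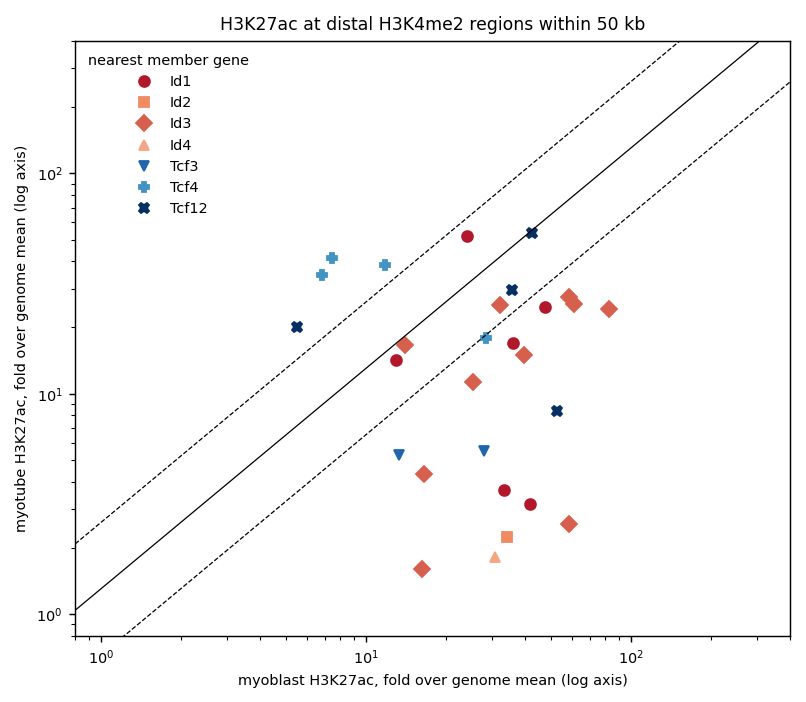
H3K27ac at the 28 distal regions with at least 20 reads, myotube fold enrichment against myoblast fold enrichment (both log axes), 1 point per region by nearest member gene. The solid line is the median of all distal regions and the dashed lines lie 2-fold either side of it. 3 regions of Tcf4 and 1 of Tcf12 lie above the upper line, and 18 regions lie below the lower one.

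The partners of E proteins and the BMP pathway were read at their start sites in the same way, from lists set by textbook role. Of 19 basic helix-loop-helix genes, 7 had enough H3K27ac reads, with 2 higher and 2 lower, where 15.1% and 13.6% of promoters were. Myog, which encodes myogenin and is switched on as myoblasts differentiate, had 18 reads in myoblasts and 312 in myotubes, a relative ratio of 11.8 (7.37 to 20.2), and Myf6, expressed in mature muscle, 5 and 26, which was not counted when scaled by windows outside peaks. Msc and Twist2, repressors that compete with MyoD for E proteins or E-boxes, had 72 and 3 and 95 and 16 reads, relative ratios of 0.0285 and 0.115. Myod1 had 42 and 56 H3K27ac reads, a relative ratio of 0.911 (interval 0.5998 to 1.39), and Myf5 35 and 43, a relative ratio of 0.840, so neither was counted. By total reads the ratio of Myf5 was 0.483, under the limit, and that of Myod1 0.524. In H3K4me3 Myog was higher and Msc and Twist2 lower among 6 with enough reads, where 4.93% of promoters were higher and 4.96% lower. In H3K4me2 Myog and Olig1 were higher and Msc and Twist2 lower among 13, against 8.86% and 9.66%, and Olig1, at 2.86, was 1.69 by total reads and 0.967 by windows outside peaks. In H3K4me1 4 of 12 were lower, against 14.4%, with Olig2 and Twist2 furthest. In H3K27me3 4 of 11 were lower, with Neurod1 and Tal1 furthest, where 12.3% of 3437 promoters were. By total reads it was 9 of 11, where the median promoter stood at 0.754 and the share of all promoters was not worked out.

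Of 15 genes of the BMP to Smad pathway, 10 had enough H3K27ac reads, with 3 higher and 1 lower, against 15.1% and 13.6% of promoters. Smad5, a receptor-activated Smad, was higher with 37 and 198 reads, a relative ratio of 3.66 (2.56 to 5.35), and so were the receptor genes Bmpr1a, with 85 and 299 and a relative ratio of 2.40, and Bmpr2, with 49 and 169 and 2.36. By total reads Smad5 was 2.11, while Bmpr1a at 1.38 and Bmpr2 at 1.36 were not counted, and 3 genes were lower. The median promoter stood at 0.576 by total reads, and the share of all promoters was not worked out. By windows outside peaks none of the 10 was higher. Grem1, which encodes a secreted BMP antagonist, was lower with 19 and 4 reads, and also in H3K4me3, with 26 and 10, as 1 of 11, against 4.96% of promoters. In H3K4me2, Smad9 was lower with 165 and 49 reads, as 1 of 12, against 9.66%. By windows outside peaks 10 of the 12 were, but by that scaling the median promoter lies below the 0.589 it has by total reads. The share of all promoters was not worked out there. In H3K4me1, Acvr1 and Smad7 were higher and Smad9 and Nog lower among 8, against 14.7% and 14.4%. Bmp4 was the only one with enough H3K27me3 reads, 26 and 7. Its relative ratio of 0.5 (0.183 to 1.18) lay on the limit and counts as lower, as did 12.3% of 3437 promoters.

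Over the 12 start-site levels, taken as log2 of fold enrichment plus 0.5, the nearest of all other genes to Id3 was Dsn1 at a Euclidean distance of 2.25, followed by Tkt at 2.31, and to Id1 it was Rrm2 at 1.38 and Chchd4 at 1.70. Id4 was nearest to Dnm3 at 1.24 and Tmem106c at 1.30, and Tcf4 to Dync2h1 at 1.07 and Prrg2 at 1.16. Id2, Tcf3 and Tcf12 had 6030458C11Rik at 0.723 and Drosha at 0.794, 1110065P20Rik at 0.757 and Yrdc at 0.762, and Tomm40 at 0.856 and Rnf217 at 0.890. Among the members the closest pair was Tcf3 and Tcf12 at 1.86, and Id1 lay 3.15 from Id3 and 7.55 from Id4.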

How the data were processed

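The 12 libraries were C2C12 myoblasts and myotubes, 1 per mark and state, with about 250 bp fragments and 15 PCR cycles per the labels. The authors aligned reads to mm9 with Mosaik 1.0.1384, kept unique alignments and deposited 1 line per 34 bp read, each a count of 1. Duplicate removal and merging of runs are not given in the sources used here, and 0.416% to 3.14% of reads shared position and strand. The authors called peaks with MACS and deposited each peak with its score. No input library was used here.

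Reads on chromosomes 1 to 19 and X were extended to 150 bp and their midpoints counted. Each protein-coding gene of GENCODE M1 has 1 TSS, that with the most H3K4me3 reads in both states together. Named were the 7 members, the myogenic factors, at most 2 genes of each pathway list per mark and direction, the 2 nearest genes to each member, and for each member the distal regions with the most H3K27ac and its largest rise and fall. The lists were bHLH partners and BMP to Smad genes. The members and lists were chosen with earlier results of these data known. With 1 library per state there was no test. The steps were tested on simulated data. Alternatives covered windows, TSS choice, read extension, duplicates, scaling, background, read minimum, peak score and overlap, exchanged lists and distance. Scripts ran in Python 3.11.15, with scipy 1.17.1 for intervals, matplotlib 3.10.9 for plots, and pandas 2.3.3 and numpy 2.4.6.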

Additional observations from a re-analysis of the deposited data

How the results depend on the processing

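No paired analysis was possible because each state has 1 library per mark. Values rest on 0 to 2251 reads and have counting error only, and H3K27me3 at the start sites was below the read minimum at all 7 members. In H3K27ac at the start site 3 or 4 members were counted under each alternative run, but with 500 bp either side or 2 kb downstream the 3 were Id1 and Id3, lower, and Tcf4, higher. Other counts moved, and the cause was not tested except where the window or read minimum itself changed the reads.

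In windows of 500 bp either side of the TSS, 0 members were counted in H3K4me3 and 0 in H3K36me3, against 1 and 1. In the 2 kb downstream 4 were counted in H3K4me3, 3 in H3K4me2 against 1, 4 in H3K4me1 against 2, and 2 in H3K36me3. At the 5′-most annotated TSS, for Tcf4 one upstream of the start-site group near its 5′ end, it was 2 in H3K4me3 and 0 in H3K4me2. Reads not extended gave 4 in H3K4me1. Scaled by total reads, 2 were counted in H3K4me3, Id1 and Id3, and 2 in H3K4me2, Id4 and Tcf12, all lower. The median promoter stood at 0.867 in H3K4me3 and 0.589 in H3K4me2 by total reads. Scaled by 10 kb windows outside peaks, 5 were counted in H3K4me2, all lower, where the 1 counted otherwise, Tcf4, is higher. By that scaling the median promoter lies below the 0.589 it has by total reads, and the share of all promoters was not worked out. A minimum of 50 reads left 0 in H3K36me3 at the TSS and 1 over the body, against 2. Without the first 1 kb of the gene body it was 1 in H3K36me3 and 1 in H3K27me3, and scaling by windows outside peaks gave 1 in H3K27me3, against 0.

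With a peak score of at least 100, 1 member had an H3K4me1 peak in myotubes, against 2. With peaks covering at least 50% of the window, 0 had one in H3K4me1 in myoblasts, 0 in H3K36me3 in myoblasts and 0 in H3K4me1 in myotubes, against 2 each. With the myoblast H3K27 lists exchanged it was 0 in H3K27me3, against 6, and 6 in H3K27ac, against 0. At least 5 kb from a TSS, 11 distal regions were counted in H3K4me2, against 17, and 14 in H3K27ac, against 22. Of the single-gene values, 64 of 84 start-site levels, 20 of 40 start-site ratios and 5 of 11 gene-body ratios moved beyond their counting interval under at least 1 alternative.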
